A study of Mus musculus with 3 samples.

Results

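Motile cilia and sperm tails are built around the axoneme, a ring of doublet microtubules that carries dynein motors and, in most cilia, surrounds a central pair. The genes described here are those whose symbols mark them as axoneme or motile-cilium genes. They comprise the dynein heavy and intermediate chains and dynein assembly factors (Dnah, Dnai and Dnaaf), the nexin-dynein regulatory complex (Drc), the cilia and flagella associated proteins (Cfap), the radial spoke proteins (Rsph) and the tektins (Tekt), each followed by a number, with Foxj1, Pifo, Hydin, Spag6, Spag16 and Spag17. The rule used symbols and no measured value, but the genes were chosen with earlier results of these data known. Of 16531 genes with a named probe, 40 met the rule, through 53 probes, and each gene was read from its brightest probe. Neither a Dnai gene nor Spag17 had a named probe here.

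Dynein arms pull neighbouring doublets past each other, the nexin-dynein regulatory complex links the doublets, and the radial spokes pass signals from the central apparatus to the arms. Multiciliated epithelia and spermatids use nearly the same parts, and Foxj1 and the Rfx factors are the best known transcription factors that switch these genes on. In the male gonad, axonemal genes are known above all from the sperm tail, which is assembled only long after birth.

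Total RNA of male mouse gonads at embryonic day 14.5 was hybridised to Agilent 1-colour arrays, with 2 arrays for each of 3 genotypes. Wild-type gonads carried Cyp26b1+/+ and Stra8+/+, Cyp26b1 knockout gonads carried Cyp26b1-/- and Stra8+/+, and double knockout gonads carried Cyp26b1-/- and Stra8-/-. All came from a line called MCH. Cyp26b1 degrades retinoic acid, and Stra8 is a retinoic acid-induced factor of meiotic entry, so the comparisons ask what differs without Cyp26b1 and whether the loss of Stra8 alters it. The duplicates are stated to be biological, but the labels do not give the number of embryos behind each array, and a p-value here reflects the spread of these arrays alone. In whole gonads, fewer cells of a type and less RNA per cell cannot be told apart.

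Each genotype was on a slide of its own, and the Cyp26b1 knockout slide was scanned on a different day from the other slides, so genotype and slide cannot be told apart. Between 61.9% and 68.6% of probes on an array were well above background, and the 75th percentile of the signal, used for scaling, lay between 997 and 1536. The Cyp26b1 probe did not separate the genotypes (adjusted p = 0.557 and 0.781 against wild type). Stra8 was higher than in wild type by 2.98 on the log2 scale in the arrays labelled double knockout, and by 4.04 in those labelled Cyp26b1 knockout. No label says whether either probe falls inside the deleted sequence, so the genotypes are those of the labels.

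In the gonads labelled Cyp26b1 knockout, 17 of 36 tested cilium and axoneme genes fell below wild type and 3 rose above it. All levels are log2 signals, with the 75th percentile of the array set to 0, and all adjusted p values are from limma with Benjamini-Hochberg adjustment over 22267 features, with a threshold of 0.05. Of all features tested, 29.5% were lower and 21.6% were higher in the same comparison. At 2-fold or more by the fitted difference, 13 of the 36 were lower, against 9.34% of all features, and 1 was higher, against 7.21%. Of the 13, Pifo, Dnah5, Cfap65 and Cfap206 were below background in the Cyp26b1 knockout. The 1 higher gene, Spag16, was below background in wild type. The median log2 difference of the 36 was -0.49, against -0.09 over all features. Of the 40 genes, 28 were well above background on every array, 8 were tested although they were dim on some array, and 4 were not tested. Since a gene that passed only through the genotype where it was bright had to differ, the same count was taken over the 28, of which 14 were lower and 2 higher, against 31.1% and 21.9% of features filtered that way. The 2-fold counts and the medians were not repeated over the 28.

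In the double knockout, 10 of the 36 were lower than in wild type and 2 were higher, against 6.55% and 5.23% of all features. At 2-fold or more by the fitted difference, 9 were lower, against 2.82%, and 2 higher, against 1.59%, and the median difference was -0.24, against -0.02 over all features. Among the 9, Dnah5, Cfap65 and Pifo were below background in the double knockout, and Spag16, among the 2, was below background in wild type. Set against the Cyp26b1 knockout, the double knockout had 13 genes higher and 3 lower, against 24.9% and 18% of all features. At 2-fold or more by the fitted difference 8 were higher, against 4.03%, and 1 lower, against 6.18%, and the median difference was 0.39, against 0.09. The 8 include Pifo, below background in both mutants, and Cfap206, known only as a bound. The 1 lower gene was Spag6, for which no fold can be given. Over the 28 genes bright on every array, 6 were lower and 1 higher in the double knockout against wild type (6.44% and 5.63% of features filtered that way), and 10 higher and 2 lower between the mutants (27.9% and 18%). The comparisons share arrays, so their values are given side by side and not as independent evidence.

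The scale on which the genotypes are centred bears on these counts. The authors' deposited table had the same differences shifted by 0.10, -0.20 and -0.30 for Cyp26b1 knockout against wild type, double knockout against wild type and double knockout against Cyp26b1 knockout. With those offsets the medians of all features were 0.02, -0.22 and -0.22. The genes then numbered 3 higher and 15 lower, 2 higher and 17 lower, and 9 higher and 5 lower. Over all features the split became 5804 higher and 5341 lower in place of 4805 and 6569, 685 and 4442 in place of 1165 and 1458, and 2142 and 7409 in place of 5554 and 4019.

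Another background correction also bears on them. With normexp, a model of background and signal, fitted on all spots, the genes still called lower in the Cyp26b1 knockout were Drc1, Tekt1, Rsph1, Rsph9, Cfap52, Cfap57 and Cfap300. Those called lower in the double knockout were Drc1, Tekt1 and Cfap52, and those called higher in the double than in the single mutant were Drc1, Tekt1 and Rsph9. Every other call of the 36 genes was lost in that setting, in which the local background of wild-type array 2 reached 35409.5. Fitted without marked spots, normexp gave smaller differences for the dimmest of the genes named below.

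**Figure D1:**
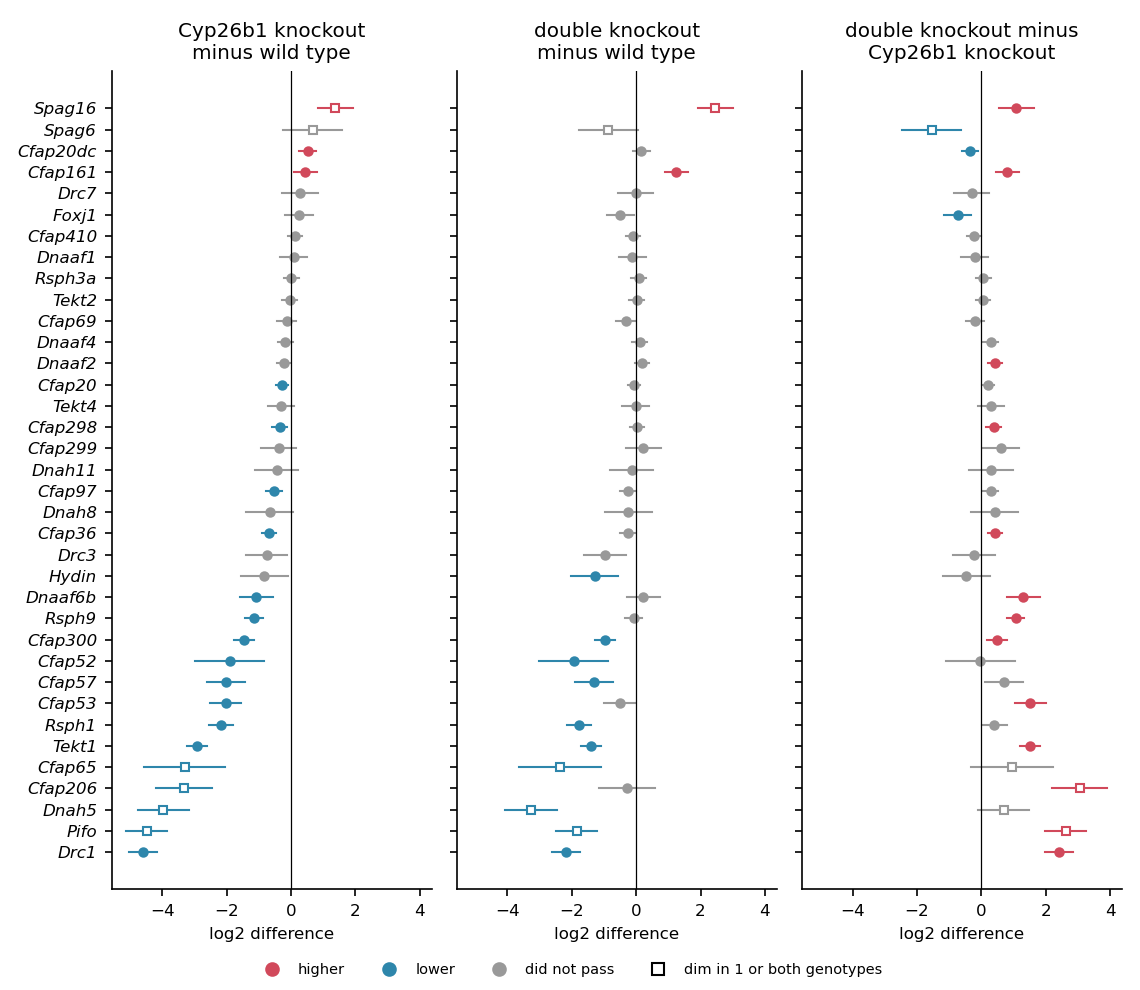
Log2 differences of the 36 tested genes, with 95% confidence intervals from limma, in the 3 comparisons (n = 2 arrays per genotype). Red and blue mark genes higher or lower at an adjusted p below 0.05, grey those that did not pass, and open squares those with only a bound or no fold because a genotype was below background. Drc1, Pifo, Dnah5, Cfap206 and Cfap65 lie farthest to the left in the first panel.

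The promoters of these genes often hold the core of the X-box, the site that Rfx factors bind, among the genes that fell and among those that did not. The window examined was 250 bases before to 50 bases after each RefSeq start (GRCm38.p6), which the sequence table gave for 32 of the 40 genes. The letters GTTGCC, on either strand, were in the window of 17 of the 32, against 14.1% of 27025 genes. Among genes lower in the Cyp26b1 knockout 7 of 13 had a match, and among the other tested genes 9 of 16 had one. A match is a description of letters and not evidence of a bound site.

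Windows of 4 genes show the pattern, with the X-box core in capitals, each read 5′ to 3′ on the strand of its gene. Drc1 and Tekt1 fell in both mutants, Cfap57 fell in both without a match in this window, and Cfap20dc has matches but was higher in the Cyp26b1 knockout. The Drc1 window is chr5:30281143-30281442 on the plus strand, and the others lie on the minus strand, at chr11:72361833-72362132 for Tekt1, chr4:118620736-118621035 for Cfap57 and chr14:8666241-8666540 for Cfap20dc.
Drc1: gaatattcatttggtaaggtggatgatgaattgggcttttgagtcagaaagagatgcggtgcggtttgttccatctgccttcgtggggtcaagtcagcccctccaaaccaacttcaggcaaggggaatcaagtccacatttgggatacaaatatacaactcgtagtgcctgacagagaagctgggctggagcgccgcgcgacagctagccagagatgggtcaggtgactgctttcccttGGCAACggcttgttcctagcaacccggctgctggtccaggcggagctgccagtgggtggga
Tekt1: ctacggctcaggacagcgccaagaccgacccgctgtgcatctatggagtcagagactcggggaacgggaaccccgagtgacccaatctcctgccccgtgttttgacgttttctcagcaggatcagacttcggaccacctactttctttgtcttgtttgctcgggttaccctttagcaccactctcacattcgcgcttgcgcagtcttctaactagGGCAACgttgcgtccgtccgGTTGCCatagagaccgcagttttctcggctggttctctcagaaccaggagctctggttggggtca
Cfap57: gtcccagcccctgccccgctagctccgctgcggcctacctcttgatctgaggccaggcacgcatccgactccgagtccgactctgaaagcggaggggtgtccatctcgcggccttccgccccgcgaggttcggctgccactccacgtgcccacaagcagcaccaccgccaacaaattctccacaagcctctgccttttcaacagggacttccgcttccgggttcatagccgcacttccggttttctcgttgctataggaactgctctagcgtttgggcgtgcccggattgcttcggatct
Cfap20dc: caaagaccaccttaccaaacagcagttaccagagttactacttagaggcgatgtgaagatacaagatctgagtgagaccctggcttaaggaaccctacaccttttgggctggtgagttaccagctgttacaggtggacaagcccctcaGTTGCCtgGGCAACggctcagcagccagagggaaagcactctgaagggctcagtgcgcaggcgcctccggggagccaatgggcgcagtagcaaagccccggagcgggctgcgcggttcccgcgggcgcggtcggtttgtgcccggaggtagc
The core stood 11 bases before the start in Drc1, and Tekt1 held 2 cores, the first 35 bases before its start. A second annotated start of Tekt1 had none. Cfap20dc also held 2, the first 102 bases before its start, separated by a pair of bases. The letters TGTTTAC on either strand, a forkhead site of the kind that Foxj1 binds, were in 1 of 32 windows against 4.05% of genes. The nuclear receptor core AGGTCA on either strand, from which retinoic acid response elements are built, was in 2 of 32 against 18.1%.

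**Figure D2:**
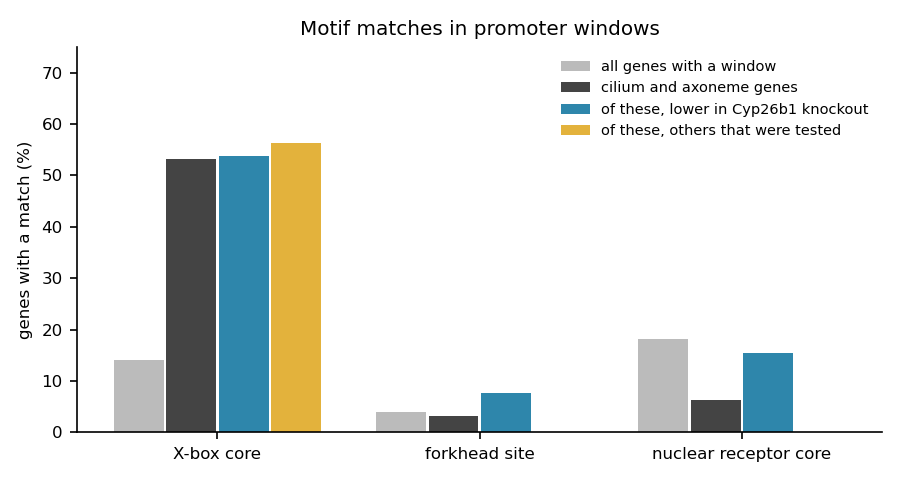
Share of genes (%) whose promoter window holds each motif on either strand: all 27025 genes with a window, the 32 cilium and axoneme genes, and among these the 13 lower in the Cyp26b1 knockout and the 16 others tested. For the X-box core the 3 bars of cilium and axoneme genes stand near each other, at 17 of 32, 7 of 13 and 9 of 16, above the 14.1% of all genes.

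Among the nexin-dynein regulatory complex genes, Drc1, which encodes a scaffold subunit of the complex, had the largest measured fall of any cilium or axoneme gene. Its level was 3.52 and 3.86 in wild type, -1.11 and -0.72 in the Cyp26b1 knockout and 1.70 and 1.30 in the double knockout. The genotypes did not overlap, and the double knockout lay between the others. Drc1 fell by 4.60 ± 0.19 (SE, n = 2 arrays per genotype) in the Cyp26b1 knockout, or 24.3-fold (adjusted p = 4.96e-05). In the double knockout it fell by 2.18 ± 0.19, or 4.54-fold (adjusted p = 0.00129), and it was 2.42 ± 0.19 higher there than in the Cyp26b1 knockout (adjusted p = 0.000408). Each of these calls held under the 16 other settings tried. Drc3, another subunit, did not pass: it differed by -0.76 (adjusted p = 0.0529) and -0.98 (adjusted p = 0.0628) from wild type, and without wild-type array 1, the lower of its arrays, both differences passed, at -1.18 and -1.40 (adjusted p = 0.0116 and 0.0346). Over the alternatives these p values ran from 0.0116 to 0.569 and from 0.0246 to 0.899. Drc7 differed by 0.28 and -0.01 and did not pass.

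Tektins are filament proteins that stiffen the doublets. Of 3 tested, Tekt1 passed, and both of its probes gave the same direction. Tekt1 measured 2.02 and 2.39 in wild type, -0.80 and -0.62 in the Cyp26b1 knockout and 0.80 and 0.79 in the double knockout. As for Drc1, every double knockout array lay between the other genotypes. Tekt1 fell by 2.92 ± 0.13 in the Cyp26b1 knockout (7.55-fold, adjusted p = 5.29e-05) and by 1.41 ± 0.13 in the double knockout (2.66-fold, adjusted p = 0.00181). It was 1.51 ± 0.13 higher in the double knockout than in the Cyp26b1 knockout (adjusted p = 0.000513). Its second probe gave -2.87, -1.46 and 1.41 for the same comparisons. Tekt2 differed from wild type by -0.04 and 0.01, with adjusted p of 0.725 and 0.952, and Tekt4 by -0.32 and -0.02 (adjusted p = 0.158 and 0.952).

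The radial spoke head genes Rsph1 and Rsph9 both fell in the Cyp26b1 knockout, and Rsph1 also fell in the double knockout. Rsph1 measured -0.99 and -0.58 in wild type, -2.96 on both Cyp26b1 knockout arrays, and -2.58 and -2.53 in the double knockout. It fell by 2.18 ± 0.16 in the Cyp26b1 knockout (4.53-fold, adjusted p = 0.00013) and by 1.77 ± 0.16 in the double knockout (3.42-fold, adjusted p = 0.00159). The mutants differed by 0.41 ± 0.16 and did not pass (adjusted p = 0.0754), although they did not overlap. That difference passed with quantile normalization (0.53, adjusted p = 0.0343) and with scaling by the median of well-measured probes (adjusted p = 0.0491), in a range of 0.0343 to 0.74 over the alternatives. Rsph9 measured 2.32 and 2.14 in wild type, 0.94 and 1.24 in the Cyp26b1 knockout, and 2.15 on both double knockout arrays. Its double knockout arrays lay within the wild-type range. Rsph9 fell by 1.14 ± 0.12 in the Cyp26b1 knockout (2.21-fold, adjusted p = 0.000356), differed from wild type by -0.08 ± 0.12 in the double knockout (adjusted p = 0.694), and was 1.06 ± 0.12 higher in the double than in the single mutant (adjusted p = 0.000879).

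Rsph3a, a gene of the spoke stalk, did not pass at its brightest probe (0.02, 0.08 and 0.06 in the 3 comparisons), but its probes disagreed. The other probes were 0.28 and 1.13 higher in the Cyp26b1 knockout than in wild type, and with all 3 averaged the gene was 0.48 higher there (adjusted p = 0.00421, from 0.00421 to 0.982 over the alternatives). Rsph3b is a near-identical copy of this gene, so its signal is uncertain. Rsph6a, a spoke protein of the sperm tail, was below background on all 6 arrays.

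Of the dynein heavy chains, Dnah5 of the outer arm was seen only in wild type. It measured -4.55 and -4.30 there, -8.51 and -8.27 in the Cyp26b1 knockout and -7.61 and -7.78 in the double knockout, and neither mutant was well above background. For such a gene the fold is known only as a bound, taken from the weakest signal still called well above background on the dim arrays, or the dim gene's own signal where that is stronger. Dnah5 was at least 3.81-fold lower in the Cyp26b1 knockout (adjusted p = 0.000208, within 0.000195 to 0.635) and at least 2.39-fold lower in the double knockout (adjusted p = 0.00236). With normexp on all spots the first call was lost (-1.79, adjusted p = 0.635), and without marked spots it held at -0.74 and the second at -0.77, both smaller than the bounds. The second of these calls was lost when its 3 probes were averaged (adjusted p = 0.0811, from 0.00177 to 0.899 over the alternatives), since the other probes were below background on every array. Dnah8 and Dnah11, also outer arm heavy chains, did not pass in any comparison, with differences between -0.66 and 0.42. Without Cyp26b1 knockout array 2, which lay near wild type, Dnah8 was lower by 1.18 in the Cyp26b1 knockout (adjusted p = 0.00574) and 0.94 higher in the double knockout than there (adjusted p = 0.016). With the array number as a replicate block its first difference passed as well (-0.66, adjusted p = 0.0428). The ranges over the alternatives were 0.00574 to 0.602 and 0.016 to 0.785.

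The dynein assembly factors, which build the arms in the cytoplasm, had 1 of 4 tested genes lower in the Cyp26b1 knockout, near the 29.5% of all features. None passed in the double knockout against wild type. Dnaaf6b, the X-linked member of this group, measured -3.68 and -3.99 in wild type, -4.98 and -4.84 in the Cyp26b1 knockout and -3.44 and -3.78 in the double knockout. The double knockout overlapped wild type, and the Cyp26b1 knockout lay below both. Dnaaf6b fell by 1.08 ± 0.22 in the Cyp26b1 knockout (adjusted p = 0.00515) and was 1.31 ± 0.22 higher in the double knockout than there (adjusted p = 0.00324), while the double knockout differed from wild type by 0.23 (adjusted p = 0.525). Both calls were lost with normexp on all spots (adjusted p = 0.384, within 0.00346 to 0.384, and 0.766, within 0.00213 to 0.766), and without marked spots the values were -0.44 and 0.60. Dnaaf6, its near-identical copy, was below background on all arrays, and the signals of the pair may not be separated by a probe. Dnaaf2 measured 0.42 and 0.52 in wild type, 0.28 and 0.20 in the Cyp26b1 knockout and 0.70 and 0.62 in the double knockout. It was 0.42 ± 0.09 higher in the double than in the single mutant (adjusted p = 0.00902), a call lost with the offsets of the authors' deposited table (0.12, adjusted p = 0.325, within 0.00446 to 0.325 over the alternatives). Dnaaf1 and Dnaaf4 did not pass in any comparison.

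**Figure D3:**
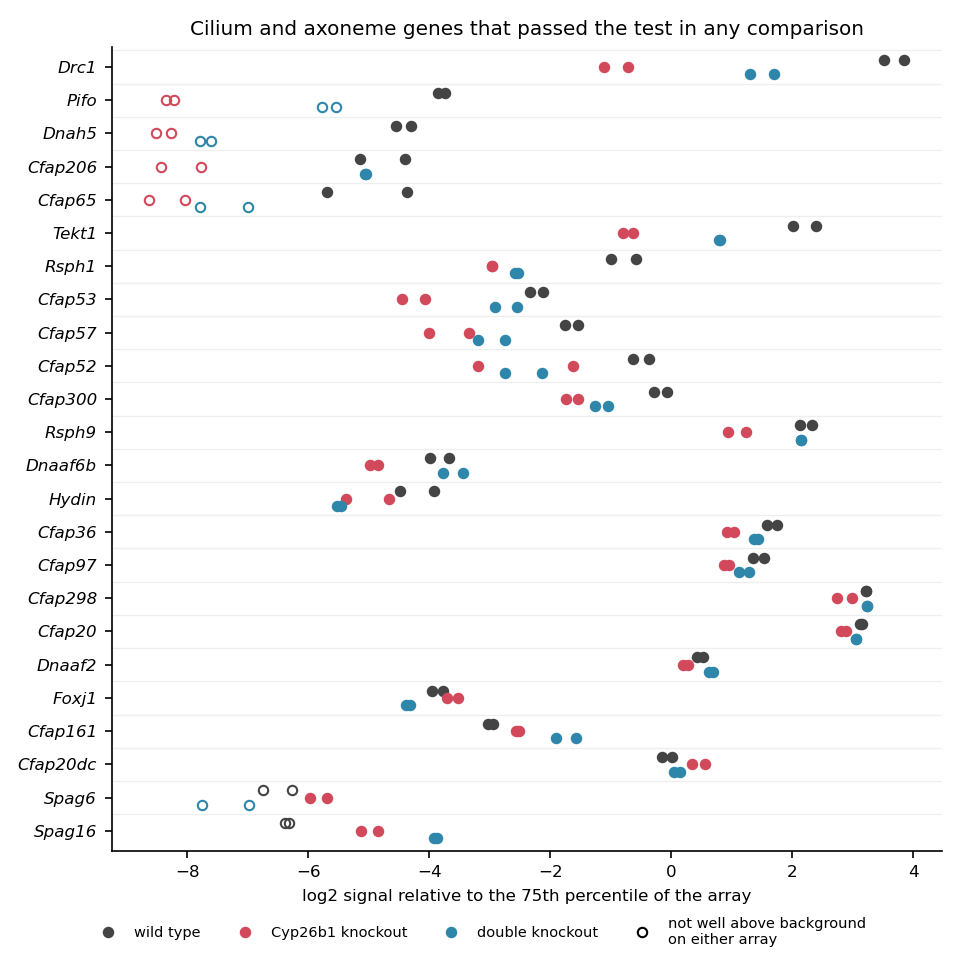
Log2 signal on each array, scaled to its 75th percentile, for the cilium and axoneme genes that passed the test in at least 1 comparison, with 1 point per array and 2 arrays per genotype. Open circles mark a genotype in which neither array was well above background. Wild type (black) is rightmost for Drc1, Tekt1 and Rsph1, and the double knockout (blue) lies between the other genotypes for Drc1 and Tekt1.

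The Cfap genes, a numbered series that gathers inner proteins of the doublets, central pair proteins and less studied factors, included 10 of the 17 that fell in the Cyp26b1 knockout. Of 15 tested, 2 were higher. Cfap53, an inner doublet protein also needed for left-right asymmetry, measured -2.33 and -2.12 in wild type, -4.44 and -4.07 in the Cyp26b1 knockout and -2.55 and -2.92 in the double knockout. Only the Cyp26b1 knockout stood far from the others. Cfap53 fell there by 2.03 ± 0.20 (4.08-fold, adjusted p = 0.000321) and was 1.52 ± 0.20 higher in the double knockout (adjusted p = 0.00153). The double knockout differed from wild type by -0.51 ± 0.20 and did not pass (adjusted p = 0.15), except with the offsets of the authors' deposited table (-0.71, adjusted p = 0.0454, within 0.0454 to 0.899).

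Cfap57 and Cfap52 were low in both mutants. Cfap57, which helps to anchor inner dynein arms, measured -1.76 and -1.53 in wild type, -4.00 and -3.35 in the Cyp26b1 knockout and -2.74 and -3.19 in the double knockout. The ranges did not overlap, but the mutants came close to each other. Cfap57 fell by 2.03 ± 0.25 in the Cyp26b1 knockout (4.08-fold, adjusted p = 0.000711) and by 1.32 ± 0.25 in the double knockout (2.49-fold, adjusted p = 0.0189), and the mutants differed by 0.71 ± 0.25 (adjusted p = 0.056). The double knockout call was lost without wild-type array 1 (adjusted p = 0.0791), wild-type array 2 (0.13) or double knockout array 2 (0.0747), and the p ranged from 0.00878 to 0.822 over the alternatives. The difference between the mutants passed without Cyp26b1 knockout array 2 (1.04, adjusted p = 0.021) or double knockout array 2 (0.93, adjusted p = 0.0465), in a range of 0.021 to 0.704.

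Cfap52, an inner doublet protein, measured -0.64 and -0.36 in wild type, -1.62 and -3.19 in the Cyp26b1 knockout and -2.75 and -2.13 in the double knockout. Its 2 Cyp26b1 knockout arrays lay farther apart than those of any other tested cilium or axoneme gene. Cfap52 fell by 1.90 ± 0.46 in the Cyp26b1 knockout (adjusted p = 0.0113) and by 1.94 ± 0.46 in the double knockout (adjusted p = 0.0379), and the mutants differed by -0.04 ± 0.46 (adjusted p = 0.957). The first call was lost without wild-type array 2 (adjusted p = 0.0616, the highest over the alternatives), and without Cyp26b1 knockout array 1 the fall was 2.69 and without array 2 it was 1.12. The second did not survive leaving out any of the 4 arrays (adjusted p = 0.0608 to 0.186).

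Cfap300, required for dynein arm assembly, measured -0.28 and -0.08 in wild type, -1.74 and -1.55 in the Cyp26b1 knockout and -1.05 and -1.26 in the double knockout. It fell by 1.47 ± 0.13 (2.76-fold, adjusted p = 0.000244) and by 0.98 ± 0.13 (1.97-fold, adjusted p = 0.00589), and was 0.49 ± 0.13 higher in the double than in the single mutant (adjusted p = 0.0229). The arrays were again ordered wild type, double knockout, Cyp26b1 knockout with no overlap. The double knockout call was lost without wild-type array 2 (adjusted p = 0.0591, within 0.00264 to 0.0909). The difference between the mutants was lost without Cyp26b1 knockout array 1 (0.0976) or double knockout array 1 (0.111), and with the offsets of the authors' deposited table (0.19, adjusted p = 0.296), within 0.0149 to 0.373.

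Smaller falls in the Cyp26b1 knockout were measured for Cfap36, Cfap97, Cfap298 and Cfap20. Cfap36, a partner of the ciliary GTPase Arl3, measured 1.59 and 1.75 in wild type, 1.05 and 0.92 in the Cyp26b1 knockout and 1.37 and 1.44 in the double knockout. It fell by 0.69 ± 0.10 in the Cyp26b1 knockout (1.61-fold, adjusted p = 0.00107), and was 0.43 ± 0.10 higher in the double knockout than there (adjusted p = 0.0107). That second call was lost without double knockout array 2 (adjusted p = 0.0546, within 0.00593 to 0.375) and with the authors' offsets (0.12). Cfap97 fell by 0.53, Cfap298, which takes part in dynein arm assembly, by 0.35, and Cfap20, an inner junction protein of the doublet, by 0.28. With the authors' offsets the falls of Cfap298 (-0.25, adjusted p = 0.0674) and Cfap20 (-0.18, adjusted p = 0.0889) no longer passed. Neither passed without an intensity trend (adjusted p = 0.0533 and 0.0522), nor did Cfap20 with quantile normalization (adjusted p = 0.054). The call for Cfap298 was lost without wild-type array 1 or 2 or Cyp26b1 knockout array 2 (adjusted p = 0.0851, 0.0874 and 0.0648, within 0.00685 to 0.748). The call for Cfap20 was lost without the same arrays (0.0771, 0.103 and 0.0582, within 0.00599 to 0.7). Cfap298 was also 0.38 higher in the double than in the single mutant (adjusted p = 0.0185, within 0.00839 to 0.558), a call that held in 9 of 16 other settings. It was lost with the authors' offsets (0.08, adjusted p = 0.558), with quantile normalization (0.23, adjusted p = 0.0528), without an intensity trend (0.0513) and with normexp on all spots (0.26, adjusted p = 0.55). It was also lost without Cyp26b1 knockout array 2 (0.0571) or double knockout array 1 (0.0722) or 2 (0.069).

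Cfap206 and Cfap65 were too dim in some genotypes for a measured fold. Cfap206, a protein at the base of the radial spokes, measured -5.15 and -4.41 in wild type and -5.04 and -5.06 in the double knockout, and was below background in the Cyp26b1 knockout at -8.43 and -7.78. Wild type and double knockout overlapped (difference -0.27, adjusted p = 0.665). Cfap206 was at least 2.98-fold lower in the Cyp26b1 knockout than in wild type (adjusted p = 0.000458) and at least 2.46-fold higher in the double than in the single mutant (adjusted p = 0.00111). Both calls were lost with normexp on all spots (adjusted p = 0.638, within 0.000424 to 0.638, and 0.963, within 0.000985 to 0.963), and without marked spots they held at -0.50 and 0.41, smaller than the bounds. Cfap65, a flagellar protein known from male infertility, measured -5.69 and -4.37 in wild type and was below background in the Cyp26b1 knockout (-8.63 and -8.04) and the double knockout (-6.99 and -7.79). It was at least 2.50-fold lower in the Cyp26b1 knockout (adjusted p = 0.00222) and at least 1.57-fold lower in the double knockout (adjusted p = 0.0349). The first call was lost with the normexp fit that left out marked spots (adjusted p = 0.0572, within 0.00198 to 0.673). The second was lost there and without wild-type array 2 (0.207) or double knockout array 2 (0.113), within 0.0181 to 0.899.

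A few genes of the group went the other way. Cfap161, an inner doublet protein, measured -3.03 and -2.95 in wild type, -2.52 and -2.56 in the Cyp26b1 knockout and -1.58 and -1.90 in the double knockout. No arrays overlapped between genotypes, and the double knockout was highest. Cfap161 rose by 1.25 ± 0.15 in the double knockout (2.38-fold, adjusted p = 0.00399) and was 0.80 ± 0.15 higher there than in the Cyp26b1 knockout (adjusted p = 0.00566). Its difference between the Cyp26b1 knockout and wild type was 0.45 ± 0.15 (adjusted p = 0.0411), a call that did not survive leaving out any of the 4 arrays (adjusted p = 0.0884 to 0.164) and turned in direction with the normexp fit on all spots (-0.33), within 0.0196 to 0.672.

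Spag16, a central apparatus protein, was below background in wild type (-6.32 and -6.39) and above it in the Cyp26b1 knockout (-5.13 and -4.84) and the double knockout (-3.92 and -3.87). It was at least 1.97-fold higher in the Cyp26b1 knockout (adjusted p = 0.00241) and at least 4.19-fold higher in the double knockout (adjusted p = 0.00177), and 1.09 ± 0.23 higher in the double than in the single mutant (adjusted p = 0.00858). These values rest on 1 of 2 probes. The other was below background on all arrays, and with both averaged the first and last calls were lost (adjusted p = 0.141, within 0.00175 to 0.684, and 0.085, within 0.0049 to 0.925). With the normexp fit on all spots the first difference was -0.78, and the call in the double knockout was lost at 0.07 (adjusted p = 0.975, within 0.0014 to 0.975). Without marked spots the differences from wild type were 0.57 and 1.03, smaller than the bounds. Cfap20dc, which shares a domain with Cfap20, measured -0.15 and 0.02 in wild type, 0.55 and 0.35 in the Cyp26b1 knockout and 0.15 and 0.05 in the double knockout. It rose by 0.52 ± 0.11 in the Cyp26b1 knockout (adjusted p = 0.00714), a call lost without wild-type array 1 (adjusted p = 0.0557, within 0.00337 to 0.0694). Its other probes gave 0.06 and 1.22 for that comparison, so the size depends on the probe. In the double knockout it differed from the Cyp26b1 knockout by -0.35 (adjusted p = 0.0385), a call that failed with any of 5 arrays left out (adjusted p = 0.0545 to 0.16), Cyp26b1 knockout array 2 being the exception.

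The remaining central apparatus genes were near background. Hydin, a giant protein of the central pair, measured -4.48 and -3.93 in wild type, -5.38 and -4.67 in the Cyp26b1 knockout and -5.53 and -5.45 in the double knockout, where 1 of 2 arrays was well above background. It fell by 1.29 ± 0.31 in the double knockout (adjusted p = 0.0414), a call that failed with any of the 4 arrays left out (adjusted p = 0.0871 to 0.238, within 0.018 to 0.899 over the alternatives). In the Cyp26b1 knockout it differed by -0.82 ± 0.31 (adjusted p = 0.0616) and passed without Cyp26b1 knockout array 2 (-1.18, adjusted p = 0.0304) or with the array number as a replicate block (adjusted p = 0.0295), within 0.0295 to 0.641. Spag6 was above background only in the Cyp26b1 knockout (-5.97 and -5.70). The test placed it lower in the double knockout (adjusted p = 0.0176), but no fold can be given, and the call was lost without Cyp26b1 knockout array 2 (0.0831) or double knockout array 2 (0.0686), within 0.00841 to 0.963.

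Of the regulators, Foxj1, the forkhead factor that drives the motile cilium programme, did not pass the test in either mutant against wild type. Foxj1 measured -3.96 and -3.77 in wild type, -3.52 and -3.71 in the Cyp26b1 knockout and -4.32 and -4.38 in the double knockout. It differed from wild type by 0.25 ± 0.18 in the Cyp26b1 knockout (95% confidence interval -0.18 to 0.68, adjusted p = 0.289) and by -0.49 ± 0.18 in the double knockout (adjusted p = 0.128). Between the double and the single mutant Foxj1 differed by -0.74 ± 0.18 (adjusted p = 0.0159), and this call was lost without Cyp26b1 knockout array 1 (0.0674) or double knockout array 2 (0.0582), within 0.00381 to 0.973. With the normexp fit on all spots that difference was 0.10. With the authors' offsets the difference between double knockout and wild type passed (-0.69, adjusted p = 0.036, within 0.036 to 0.899).

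Pifo, a regulator of ciliary disassembly that is also expressed in the embryonic node, measured -3.86 and -3.74 in wild type and was below background in both mutants, at -8.21 and -8.35 in the Cyp26b1 knockout and -5.54 and -5.77 in the double knockout. It was at least 5.86-fold lower in the Cyp26b1 knockout (adjusted p = 8.88e-05) and at least 3.56-fold lower in the double knockout (adjusted p = 0.00756). The first call was lost with normexp on all spots (-1.89, adjusted p = 0.533, within 8.4e-05 to 0.533), and without marked spots these differences were -0.98 and -0.74, smaller than the bounds. The second call was lost without wild-type array 1 (adjusted p = 0.061) or 2 (0.081), within 0.00428 to 0.899. The fit also called Pifo higher in the double than in the single mutant (adjusted p = 0.000714), but both lay below background and no fold is given. That call was lost with the normexp fit that left out marked spots (adjusted p = 0.166, within 0.000652 to 0.963).

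The other tested genes, Cfap69, Cfap299 and Cfap410, did not pass in any comparison, and Cfap61 and Cfap157 were not tested.

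Other ciliary genes were counted beside these. Of 44 further axonemal and ciliary motility genes tested, 21 (47.7%) were lower and 4 (9.09%) higher in the Cyp26b1 knockout, against 29.5% and 21.6% of all features. In the double knockout 11 (25%) were lower and 1 (2.27%) higher, against 6.55% and 5.23%. Between the mutants 15 (34.1%) were higher and 2 (4.55%) lower, against 24.9% and 18%. Ccdc65, another nexin-dynein regulatory complex subunit (Drc2), fell by 2.68 ± 0.15 in the Cyp26b1 knockout (adjusted p = 8.31e-05) and by 0.996 ± 0.15 in the double knockout (adjusted p = 0.00883). Mns1, an inner doublet protein, fell by 1.77 ± 0.11 (adjusted p = 8.88e-05) and by 0.58 ± 0.11 (adjusted p = 0.0162), and Dynlrb2, a dynein light chain, by 2.51 ± 0.18 (adjusted p = 0.000122) and by 1.31 ± 0.18 (adjusted p = 0.00596). The median differences of the list were -0.32, -0.17 and 0.29.

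Genes shared by motile and non-motile cilia were counted in the same way. Of 31 intraflagellar transport genes, which carry cargo along the axoneme, 11 (35.5%) were lower and 8 (25.8%) higher in the Cyp26b1 knockout, shares near the 29.5% and 21.6% of all features, with a median of -0.16, and 1 (3.23%) was lower in the double knockout, against 6.55%. For the BBSome and the transition zone, the gate at the base of the cilium, 35 genes were tested. Of these, 16 (45.7%) were lower and 8 (22.9%) higher in the Cyp26b1 knockout, against 29.5% and 21.6% of all features. That lower share was near the 47.2% of the 36 cilium and axoneme genes, while the median was -0.17. The double knockout had 3 (8.57%) lower and 2 (5.71%) higher, against 6.55% and 5.23%. Among 17 regulators of motile ciliogenesis besides Foxj1, 6 (35.3%) rose and 2 (11.8%) fell in the Cyp26b1 knockout, and none passed in the double knockout against wild type. Rfx2 was 0.60 higher (adjusted p = 0.0392) and Rfx3 differed by 0.08 (adjusted p = 0.775) in the Cyp26b1 knockout. Deup1, a marker of multiciliated cells, was below background on all arrays.

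Markers of some other cell types had the same order of genotypes as these differences, and those of others did not. Of 14 genes of male germ cell differentiation, 12 (85.7%) were lower and 0 higher in the Cyp26b1 knockout, against 29.5% and 21.6% of all features. In the double knockout 6 (42.9%) lay below wild type, where 6.55% of all features did. Between the mutants, the double knockout had 9 (64.3%) above the Cyp26b1 knockout and 1 below it, against 24.9% and 18%. The summed level of these 14 genes, relative to the 75th percentile, was 93.4 to 103 in wild type. It was 23.4 to 25.3 in the Cyp26b1 knockout and 59.2 to 60.1 in the double knockout. Nanos2, which directs germ cells to the male path, fell by 2.93 (adjusted p = 0.000222) and by 1.01 (adjusted p = 0.0472). Of 17 general germ cell genes, 7 (41.2%) were lower and 5 (29.4%) higher in the Cyp26b1 knockout, against 29.5% and 21.6%. In the double knockout 3 (17.6%) were lower and 3 (17.6%) higher, against 6.55% and 5.23%. Their sums were 161 to 166 in wild type, 155 to 204 in the Cyp26b1 knockout and 150 to 187 in the double knockout, ranges that overlap. Of 12 fetal Leydig cell genes, 8 (66.7%) were lower and 1 higher in the Cyp26b1 knockout, against 29.5% and 21.6%. The median difference of these genes there was -0.68. In the double knockout 4 (33.3%) lay below wild type, where 6.55% of all features did. Between the mutants, the double knockout had 6 (50%) above the Cyp26b1 knockout and 1 below it, against 24.9% and 18%. The sums of these 12 genes were 234 to 252 in wild type and 139 to 168 in the Cyp26b1 knockout. Those of the double knockout lay between, at 192 to 221, the same order as for male germ cell differentiation. Star, which brings cholesterol into mitochondria for steroid synthesis, fell by 1.57 (adjusted p = 0.000263) and by 0.97 (adjusted p = 0.0083). Of 16 blood and macrophage genes, 4 (25%) were lower and 2 (12.5%) higher in the Cyp26b1 knockout, both below the shares of all features. Their sums were 218 to 240 in wild type, 163 to 186 in the Cyp26b1 knockout and 205 to 215 in the double knockout. Ducts of the mesonephros can adhere to a dissected gonad. Of 15 mesonephros and duct genes, 5 (33.3%) were lower and 2 (13.3%) higher in the Cyp26b1 knockout, against 29.5% and 21.6% of all features. Their sums were 16.3 to 18.3 in wild type, 11.1 to 14.4 in the Cyp26b1 knockout and 12.5 to 12.9 in the double knockout. Of their defining genes Pax8 was above background on every array, and Pax2 only in the Cyp26b1 knockout. The 36 cilium and axoneme genes summed to 78.4 and 83.4 in wild type, 56.2 and 52.3 in the Cyp26b1 knockout and 67.3 and 64.7 in the double knockout. A sum of linear signal is weighted to its brightest genes. Here these were Rsph3a, with a mean log2 level of 4.59 in wild type and no call, and Drc1, with 3.69 and the largest measured fall. The sum therefore does not give the order of most of the 36. The part of any of these cell populations in the differences was not tested.

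**Figure D4:**
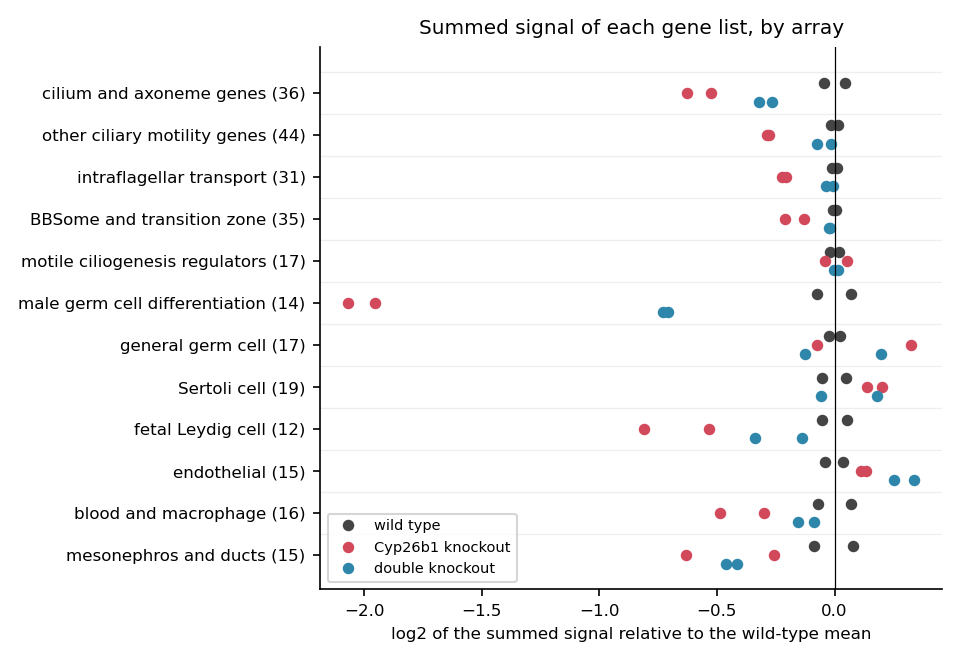
Log2 of the summed linear signal of each gene list on each array, relative to the mean of the wild-type arrays, with the number of tested genes in parentheses (black wild type, red Cyp26b1 knockout, blue double knockout). Cilium and axoneme, male germ cell differentiation, fetal Leydig cell and blood and macrophage genes are all lowest in the Cyp26b1 knockout with the double knockout between. Other ciliary motility genes and those of the BBSome and transition zone have the same order, with the double knockout close to wild type. Endothelial genes are highest in the double knockout, and the sums of the general germ cell genes overlap between genotypes. Each sum is weighted to the brightest genes of its list.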

How the data were processed

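Each of the 6 arrays was scanned and its spots quantified with Agilent Feature Extraction 9.5.3.1, per the file headers (9.5 per the submitters' processing notes). The deposited spot intensity is background-subtracted and detrended within each array, per the file headers, and is not scaled between arrays. The authors' deposited value table holds 1 ratio per genotype and probe, relative to an unstated reference. Set against the scanner values over 24500 probes it had the same direction and scale, with a constant shift per comparison, so its centring stays unknown. Its column medians were 1.00, 1.12 and 0.959 for wild type, Cyp26b1 knockout and double knockout.

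Levels were log2 intensities minus the 75th percentile of the array. Control spots and outlier spots were left out, spots of a probe were averaged, and 41149 probes remained, with 25 dropped. Accessions in the scanner files were matched without versions to a RefSeq gene table (GRCm38.p6): 23363 probes had 1 symbol, 0 several and 17786 none. A gene's brightest probe, or an unnamed probe, was a feature, tested if some genotype had both arrays well above background. This left 22267 features, 13295 with a symbol. Differences were tested in 1 fit with limma 3.58.1 in R 4.3.3 (lmFit, eBayes with an intensity trend), two-sided, adjusted by Benjamini-Hochberg, with 3 residual and 4.38 prior degrees of freedom. Errors are standard errors of that fit, and only 2 arrays per genotype limit the precision.

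The normexp alternatives (offset 50) used median spot and background signals, since the scanner files analysed here hold no mean signals. Genes named in detail were the 10 largest rises and 10 largest falls per comparison among called genes whose arrays did not overlap, all called bounds, and Foxj1, Pifo, Hydin and Drc1. Other members that are named were added for their role or for a changed call. For the other lists, up to 3 called genes with the smallest adjusted p were eligible. Nanos2, E2f5, Tead2, the tested Rfx genes, Deup1, Pax2, Pax8, Star, Ccdc65, Mns1 and Dynlrb2 were named from these or after their values were seen. The genes, lists and alternatives were chosen with earlier results of these data known.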

Additional observations from a re-analysis of the deposited data

How the results depend on the processing

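With normexp fitted on all spots, the genes called in the Cyp26b1 knockout against wild type numbered 0 higher and 7 lower, in the double knockout against wild type 0 and 3, and between the mutants 3 and 0. In that setting Spag16 (-0.78) and Cfap161 (-0.33) turned in the first comparison, and Foxj1 (0.10) and Spag6 (0.40) in the last. Local background reached 35409.5 on wild-type array 2 and 3325 on double knockout array 1, against at most 179 on the others, and without marked spots it stayed at or below 93 on every array. The offsets of the authors' table gave 17 lower in the double knockout against wild type and 5 lower between the mutants. Without a filter on dim probes, 6 were lower in the double knockout against wild type. With only genes above background on all arrays, 1 was higher and 6 lower there, from fewer genes tested. Averaging probes turned Rsph3a between the mutants (-0.47). Leaving out 1 array gave 1 to 3 higher in the Cyp26b1 knockout (1 without wild-type array 1), 4 to 10 lower in the double knockout (4 without wild-type array 2, 6 without double knockout array 2) and 0 to 2 lower between the mutants (0 without double knockout array 2, 1 without Cyp26b1 knockout array 1). Except for what was shown above, the cause was not tested. A lone array was assumed to vary like the others.

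With the array number as a replicate block, 3 genes were higher and 19 lower, 2 and 10, and 14 and 3 in the same order. Arrays with the same number deviated together only weakly (correlations of 0.105, 0.196 and 0.113), and nothing in the labels pairs them. A slide block could not be fitted because each slide held 1 genotype. Dim genes carry bounds only.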
